A study of Arabidopsis thaliana with 9 samples.

Results

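The salicylate, pipecolate and camalexin defence genes described here are 40 genes of Arabidopsis thaliana, chosen by locus identifier from the 32823 genes in the files. They comprise 3 genes of the EDS1 and PAD4 node, 2 regulators of salicylate synthesis, 4 genes of salicylate synthesis and 3 of its turnover. They also hold 3 pipecolate genes, 3 NPR genes with their interactor NIMIN1, 9 WRKY factors, 3 pathogenesis-related (PR) genes, 3 camalexin P450 genes and 6 defence markers. All 40 were in the files, and 35 had a mean of at least 1 FPKM (fragments per kilobase of transcript, scaled to the size of the library) over the libraries and were tested. ALD1, NIMIN1, WRKY38, WRKY62 and FRK1 were below that level. Another 9 of the tested genes had a mean under 1 FPKM in se-1, CYP71A13 also in cyp71-3, and passed the filter through the other genotypes. Counts over the tested genes are therefore descriptions. The symbol of AT5G52810 is not in the annotation used here, and it is called by its identifier.

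Salicylate is a phenolic hormone of plant defence. EDS1 with its partners PAD4 and SAG101 relays immune receptor signals, the factors SARD1 and CBP60g switch on the synthesis genes, and isochorismate made in the chloroplast is conjugated and converted to salicylate in the cytosol. N-hydroxypipecolate, made from lysine, carries resistance to distant leaves, and both compounds act through the NPR proteins and TGA factors on the PR genes. Camalexin is an indole antimicrobial made from tryptophan by cytochrome P450 enzymes. CYP71A12, CYP71A13 and PAD3 belong to a P450 family also abbreviated CYP71, which is unrelated to the cyclophilin CYP71 that is mutated in cyp71-3.

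The samples were whole 2-week-old seedlings grown in long days without treatment, so the values are resting levels and no pathogen was applied. The groups were 3 libraries of the mutant cyp71-3, 3 of the mutant se-1 and 3 of the wild-type accession Col-0. CYP71 encodes a nuclear cyclophilin, a peptidyl-prolyl isomerase, and SE (SERRATE) encodes a nuclear zinc-finger protein that microRNA precursors need for their processing. The study was set up to ask how CYP71 mutations act on microRNAs and their target mRNAs, and the defence genes were read from the same mRNA libraries. The labels give no lesion for either allele. They also leave unsaid whether libraries came from separate cultures, so the p-values rest on differences among these libraries, which may be technical. CYP71 mRNA (AT3G44600) had 3.70, 4.41 and 4.16 FPKM in cyp71-3, 17.94, 17.05 and 18.32 FPKM in se-1, and 16.89, 17.57 and 19.10 FPKM in Col-0. The cyp71-3 libraries thus had a 4.37-fold lower level than Col-0, and the mRNA was still detected. SE mRNA (AT2G27100) averaged 27.2 ± 1.73 FPKM in se-1 against 31.7 ± 1.37 FPKM in Col-0 (SD, n = 3), a log2 change of -0.21 (limma, adjusted p = 0.00520), so its level is a weak check of the se-1 label.

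The lowest FPKM steps gave about 14100000 to 22600000 fragments per library. Library sums of FPKM were 825338 to 937136, and the chloroplast share was between 0.0313% and 3.44%. Over the tested genes, the median SD of log2 values between libraries of a genotype was 0.102 for the defence genes and 0.0885 for all genes. Log2 changes below are differences of mean log2(FPKM + 1), in which low genes appear less changed than they are, and folds are ratios of mean FPKM. A gene was called at a Benjamini-Hochberg adjusted p under 0.05 over all 19180 genes tested with limma. In whole seedlings, fewer expressing cells and less RNA per cell cannot be told apart. The summed level of the 40 genes was 343 to 354 FPKM in cyp71-3, 216 to 222 FPKM in se-1 and 404 to 407 FPKM in Col-0. The marker lists for root, green leaf and leaf senescence also differed between the genotypes and are given with the other gene lists below.

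In cyp71-3 against Col-0, 10 of the 35 tested genes were called higher and 13 lower, 65.7% in all, against 63.3% of all genes tested (30.6% higher and 32.7% lower). That share is close to the background. Changes of at least 1 on the log2 scale were more frequent, with 4 genes higher and 5 lower, against 3.53% and 3.06% of all genes tested. The higher ones were CYP71A12, DLO1, WRKY18 and SAG101, and the lower ones were PR1, SAG13, PCR1, ACD6 and PR2. The median change of the tested defence genes was 0.01, and that of all genes was -0.01. In se-1 against Col-0, 5 were called higher and 25 lower, 85.7% in all, against 50.2% of all genes tested (25.1% in each direction). The count of higher genes was 3 without Col-0 replicate 1, se-1 replicate 2 or se-1 replicate 3. Of the lower ones, 11 fell by at least 1, against 1.51% of all genes tested, and none rose by that much, against 2.01%. The median change of the tested defence genes in se-1 was -0.65, beside 0.00 for all genes. PBS3, FMO1, CYP71A13 and PCR1, among the 11, were under 1 FPKM in se-1 and passed the filter through other genotypes. With a mean of at least 5 FPKM over the libraries, 4 defence genes were higher and 14 lower in se-1, with a median of -0.445. Fewer genes were tested at that level, with 63 results on single defence genes over the 3 comparisons. Of all genes, 7903 were then called in se-1, and their share was not computed, so these counts have no background share beside them. With organelle genes left out and the libraries rescaled, 13 defence genes were higher and 13 lower in cyp71-3, and 5 higher and 23 lower in se-1, while over all genes 60.8% of calls were higher in cyp71-3, beside 48.3% as deposited, and 69.6% in se-1, where the deposited values gave 4818 higher and 4815 lower. Both comparisons use the same Col-0 libraries, so the mutants were also compared directly.

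**Figure D1:**
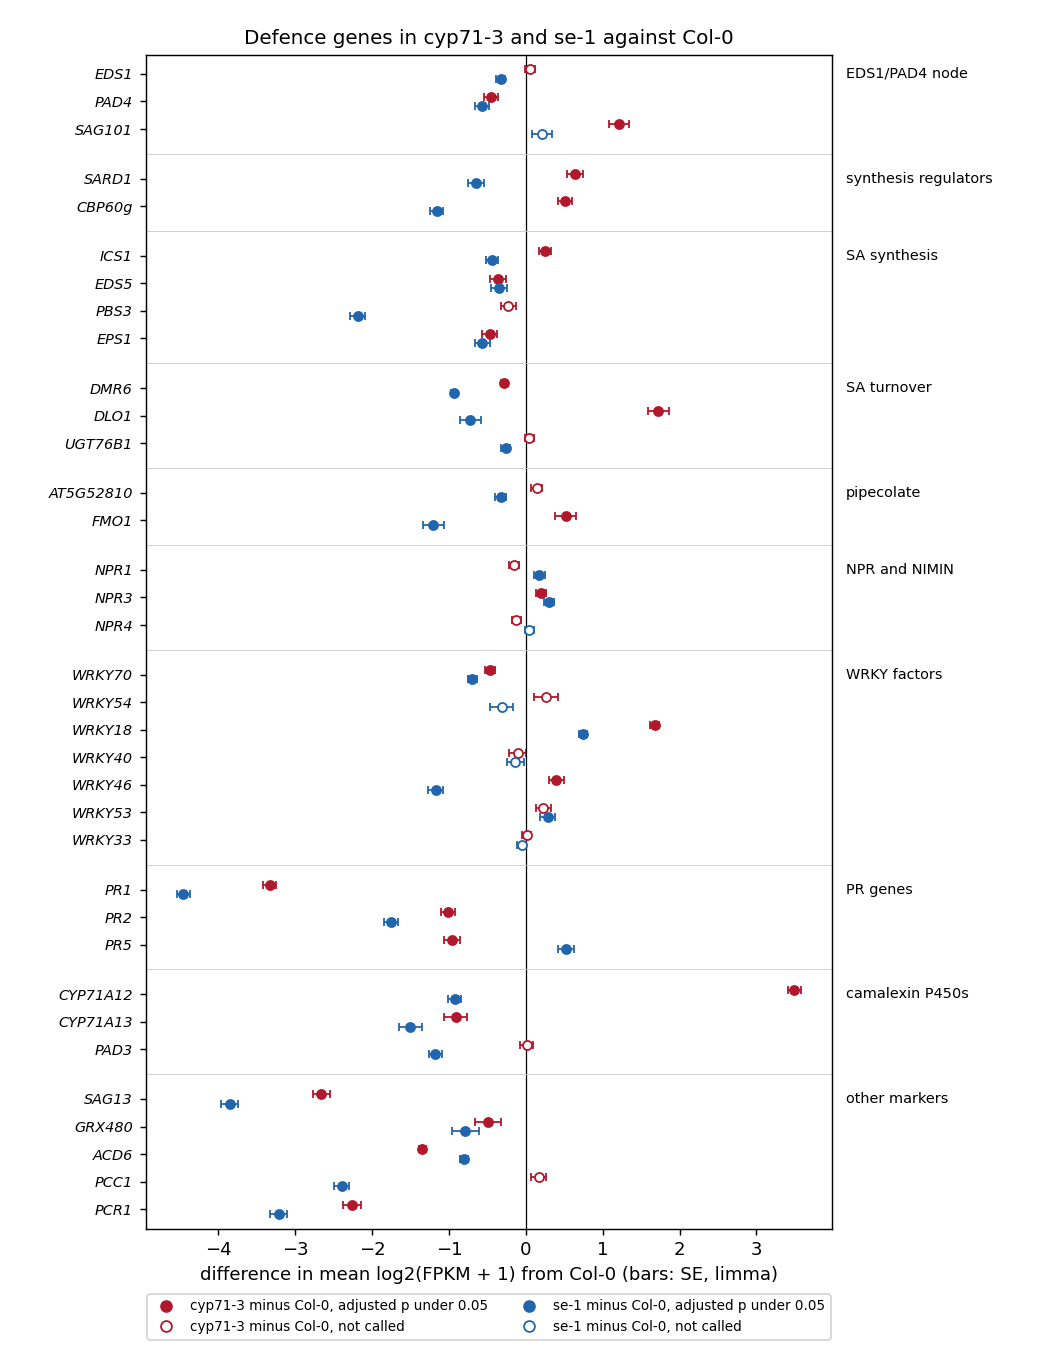
Difference in mean log2(FPKM + 1) from Col-0 for the 35 tested defence genes, in cyp71-3 (red) and se-1 (blue), with bars for the SE and filled points for an adjusted p under 0.05 (SA, salicylate). PR1 lies at -3.33 in cyp71-3 and -4.46 in se-1, while CYP71A12 lies at 3.49 in cyp71-3 and -0.93 in se-1.

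In the EDS1 and PAD4 node, the lipase-like proteins that relay signals from intracellular immune receptors, the 3 genes did not change together. EDS1 (AT3G48090) had 12.98, 12.52 and 12.36 FPKM in cyp71-3, 10.32, 8.84 and 9.25 FPKM in se-1, and 12.07, 12.11 and 12.13 FPKM in Col-0. It fell in se-1, where no library reached the Col-0 values, with a log2 change of -0.33 ± 0.06 (SE, limma, adjusted p = 0.00104). In cyp71-3 its change of 0.06 did not pass the test (adjusted p = 0.449). PAD4 (AT3G52430), the partner of EDS1 in salicylate signalling, had 4.13, 5.40 and 4.85 FPKM in cyp71-3, 4.22, 4.31 and 4.43 FPKM in se-1, and 6.84, 7.02 and 6.83 FPKM in Col-0. It fell in both mutants, by 0.45 in cyp71-3 and by 0.57 in se-1 on the log2 scale (limma, adjusted p = 0.000698 and 0.000202).

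SAG101 (AT5G14930), the partner of EDS1 in cell death, had 11.24, 12.94 and 11.84 FPKM in cyp71-3, 6.35, 4.68 and 5.51 FPKM in se-1, and 4.14, 5.91 and 3.95 FPKM in Col-0. Each cyp71-3 library was above all libraries of the other genotypes, and se-1 overlapped Col-0. SAG101 rose 2.57-fold in cyp71-3 (log2 change 1.21 ± 0.13, limma, adjusted p = 9.32e-06), while its change of 0.21 in se-1 did not pass the test (adjusted p = 0.203). Without Col-0 replicate 2, its highest Col-0 library, the se-1 change was 0.36 (adjusted p = 0.0218).

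The regulators SARD1 and CBP60g, calmodulin-binding-protein-like transcription factors that bind the ICS1 promoter, rose in cyp71-3 and fell in se-1. SARD1 (AT1G73805) had 3.78, 3.40 and 3.29 FPKM in cyp71-3, 0.96, 0.79 and 0.76 FPKM in se-1, and 1.74, 2.11 and 1.79 FPKM in Col-0. CBP60g (AT5G26920) had 9.83, 10.45 and 9.89 FPKM in cyp71-3, 2.77, 2.46 and 2.22 FPKM in se-1, and 6.02, 7.27 and 7.03 FPKM in Col-0. In both genes the 3 genotypes formed separate ranges in the order cyp71-3, Col-0 and se-1 from high to low. SARD1 shares 640 bases with GIP2 on the opposite strand, whose mean was 13.2 FPKM in cyp71-3, 15.2 FPKM in se-1 and 14.9 FPKM in Col-0. SARD1 changed by 0.64 ± 0.11 in cyp71-3 and by -0.65 ± 0.11 in se-1 (limma, adjusted p = 0.000256 and 0.000364). CBP60g changed by 0.51 ± 0.09 in cyp71-3 and by -1.16 ± 0.09 in se-1 (limma, adjusted p = 0.000326 and 9.19e-07).

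Among the 4 genes of salicylate synthesis, se-1 had all 4 lower and cyp71-3 had 1 higher, 2 lower and 1 not called. Of all genes tested, 25.1% were lower in se-1, and 30.6% were higher and 32.7% lower in cyp71-3. The largest change of the 4 was that of PBS3 (AT5G13320), which conjugates isochorismate with glutamate. PBS3 had 5.05, 5.11 and 6.32 FPKM in cyp71-3, 0.76, 0.54 and 0.70 FPKM in se-1, and 6.26, 6.86 and 6.60 FPKM in Col-0. The se-1 libraries were far below the rest, and 1 cyp71-3 library lay within the Col-0 range. PBS3 fell 9.86-fold in se-1 (log2 change -2.19 ± 0.10, limma, adjusted p = 2.09e-08), and its change of -0.23 in cyp71-3 did not pass the test (adjusted p = 0.0683). Without cyp71-3 replicate 3, the highest of its genotype, that change was -0.32 with an adjusted p of 0.0209.

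ICS1 (AT1G74710), the isochorismate synthase of the pathway, was much less changed than PBS3. It averaged 14.4 ± 0.49 FPKM in cyp71-3, 8.57 ± 1.05 FPKM in se-1 and 12.0 ± 0.65 FPKM in Col-0 (SD, n = 3), with log2 changes of 0.25 in cyp71-3 and -0.45 in se-1 (limma, adjusted p = 0.0174 and 0.000661). The ICS1 call in cyp71-3 was lost without Col-0 replicate 1 (adjusted p = 0.0682) or without cyp71-3 replicate 2 (0.0584). EDS5 (AT4G39030), the exporter of isochorismate from the chloroplast, fell by 0.36 in cyp71-3 and by 0.35 in se-1 (limma, adjusted p = 0.00826 and 0.0132). EDS5 shares 213 bases with AT4G39040 on the opposite strand, whose mean was 94.8 FPKM in cyp71-3, 77.1 FPKM in se-1 and 95.1 FPKM in Col-0. Without Col-0 replicate 1, the highest Col-0 library for EDS5, the se-1 call was lost (adjusted p = 0.0579). EPS1 (AT5G67160), the acyltransferase-family protein that releases salicylate from the PBS3 product, fell by 0.47 in cyp71-3 and by 0.57 in se-1 (limma, adjusted p = 0.00150 and 0.000576).

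Of the enzymes that use up salicylate, DLO1 and DMR6 are hydroxylases and UGT76B1 is a glucosyltransferase that also acts on N-hydroxypipecolate. DLO1 (AT4G10500) had 7.59, 7.10 and 7.25 FPKM in cyp71-3, 0.40, 0.86 and 0.36 FPKM in se-1, and 1.58, 1.21 and 1.80 FPKM in Col-0. The cyp71-3 libraries were all above 7 FPKM and the se-1 libraries all below 1 FPKM, with Col-0 between them. DLO1 rose 4.78-fold in cyp71-3 (log2 change 1.72 ± 0.14, limma, adjusted p = 7.94e-07) and fell 2.83-fold in se-1 (-0.72 ± 0.14, adjusted p = 0.00109). DMR6 (AT5G24530), the other hydroxylase, averaged 25.1 FPKM in cyp71-3, 15.6 FPKM in se-1 and 30.7 FPKM in Col-0. It was lower in both mutants, with log2 changes of -0.28 in cyp71-3 and -0.93 in se-1 (limma, adjusted p = 0.000138 and 2.09e-08). UGT76B1 (AT3G11340) fell by 0.26 in se-1 (adjusted p = 0.00331; with organelle genes left out and the libraries rescaled, -0.16 and 0.0670), and its change of 0.05 in cyp71-3 did not pass the test.

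The bases upstream of DLO1 are shown because DLO1 was the salicylate gene with the largest called rise in cyp71-3. They are the 250 bases before the annotated start in RefSeq's TAIR10.1 annotation, chr4:6490767-6491016, plus strand, written 5′ to 3′, with the capitals marking TGACG, the core bound by TGA factors. DLO1 itself has 3 exons. The capitals cover TGACG on the plus strand and again, overlapping it, on the minus strand, starting 72 and 69 bases before the start.
DLO1: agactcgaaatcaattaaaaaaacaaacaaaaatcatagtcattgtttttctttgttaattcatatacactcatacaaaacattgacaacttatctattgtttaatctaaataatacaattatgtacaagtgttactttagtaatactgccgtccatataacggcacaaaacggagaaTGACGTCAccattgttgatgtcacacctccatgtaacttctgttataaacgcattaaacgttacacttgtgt

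Of the pipecolate genes, FMO1 (AT1G19250), the monooxygenase that hydroxylates pipecolate, had 3.26, 3.36 and 3.61 FPKM in cyp71-3, 0.30, 0.61 and 0.13 FPKM in se-1, and 1.91, 2.00 and 2.31 FPKM in Col-0. The se-1 values rest on about 4.9 to 15 fragments per library, and the 3 genotypes did not overlap. FMO1 fell 5.98-fold in se-1 (SE of the log2 change 0.14, limma, adjusted p = 2.39e-05). It rose by 0.52 in cyp71-3 (adjusted p = 0.00577), a call that was lost with a pseudocount of 0.1 (adjusted p = 0.0878). AT5G52810, counted with the pipecolate genes, fell by 0.33 in se-1 (adjusted p = 0.00266) and was not called in cyp71-3, where its change was 0.14 (adjusted p = 0.102). Without Col-0 replicate 3 that change was 0.20 (adjusted p = 0.0456), and with organelle genes left out and the libraries rescaled it was 0.24 (adjusted p = 0.0154). ALD1 (AT2G13810), the aminotransferase of the first step, was not tested and had 0.42, 0.87 and 1.01 FPKM in cyp71-3, 0.68, 0.77 and 0.47 FPKM in se-1, and 1.04, 1.18 and 1.37 FPKM in Col-0. Its 3 Col-0 values were above those of both mutants, on at most about 30.6 fragments per library.

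The NPR genes, which encode the salicylate receptors, changed little, by at most 0.30 on the log2 scale. NPR1 (AT1G64280), the coactivator of the PR genes, had 8.46, 9.15 and 8.72 FPKM in cyp71-3, 10.96, 12.05 and 10.92 FPKM in se-1, and 9.61, 9.39 and 10.68 FPKM in Col-0. The se-1 values were the highest and those of cyp71-3 the lowest, but the gaps to Col-0 were small. The log2 change was -0.15 ± 0.07 in cyp71-3 (limma, adjusted p = 0.0636) and 0.18 ± 0.07 in se-1 (adjusted p = 0.0463). The se-1 call was lost in 12 of the alternative analyses, among them those that left out any 1 library other than Col-0 replicate 3 (adjusted p up to 0.163). NPR3 (AT5G45110), a corepressor receptor, rose by 0.20 in cyp71-3 and by 0.30 in se-1 (limma, adjusted p = 0.0162 and 0.00189). Without Col-0 replicate 3 or cyp71-3 replicate 1, the NPR3 call in cyp71-3 was lost (adjusted p = 0.0627 and 0.0599). The related NPR4 (AT4G19660) was called in neither mutant, with changes of -0.12 in cyp71-3 and 0.05 in se-1 (adjusted p = 0.0940 and 0.533). NIMIN1 (AT1G02450), a repressor that binds NPR1, was listed at 0.59, 0.43 and 0.37 FPKM in cyp71-3, 0.15, 0.00 and 0.12 FPKM in se-1, and 0.17, 0.19 and 0.00 FPKM in Col-0, on at most about 3.99 fragments, and was not tested.

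Of the 9 WRKY factors, which bind W-box DNA, 7 were tested, of which 2 were higher and 1 lower in cyp71-3, and 2 higher and 2 lower in se-1. The share called was 42.9% in cyp71-3, against 63.3% of all genes tested, and 57.1% in se-1, against 50.2%. The counts thus do not set the WRKY factors apart from other genes. WRKY18 (AT4G31800) rose the most of the WRKY factors. It had 22.78, 25.50 and 24.06 FPKM in cyp71-3, 11.79, 12.15 and 12.50 FPKM in se-1, and 6.91, 6.79 and 6.89 FPKM in Col-0, so both mutants lay above Col-0 without overlap. Its rise was 3.51-fold in cyp71-3 (log2 change 1.67 ± 0.06, limma, adjusted p = 7.69e-10) and 1.77-fold in se-1 (0.74 ± 0.06, adjusted p = 9.23e-07). Its relative WRKY40 (AT1G80840), a repressor that acts with WRKY18, averaged 4.62 FPKM in cyp71-3, 4.52 FPKM in se-1 and 5.08 FPKM in Col-0 and was called in neither mutant (adjusted p = 0.409 and 0.320). Their coding sequences match at 64.0% of aligned bases, with no identical run over 15 bases.

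WRKY46 (AT2G46400), a positive regulator of basal resistance, had 5.35, 6.70 and 5.51 FPKM in cyp71-3, 1.32, 1.47 and 1.13 FPKM in se-1, and 4.37, 4.04 and 4.14 FPKM in Col-0. It was lowest in se-1 and highest in cyp71-3, with no overlap. It fell 3.20-fold in se-1 (log2 change -1.17 ± 0.10, limma, adjusted p = 2.56e-06) and rose 1.40-fold in cyp71-3 (0.40 ± 0.10, adjusted p = 0.00459). WRKY70 (AT3G56400), which shifts the balance from jasmonate to salicylate responses, fell by 0.47 in cyp71-3 and by 0.69 in se-1 (adjusted p = 5.25e-05 and 3.78e-06). Its relative WRKY54 (AT2G40750) was called in neither, with changes of 0.26 in cyp71-3 and -0.32 in se-1 (adjusted p = 0.160 and 0.111). Without Col-0 replicate 1, its lowest Col-0 library, the WRKY54 change in se-1 was -0.45 (adjusted p = 0.0307).

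WRKY53 (AT4G23810), a factor of leaf senescence and defence, rose by 0.29 in se-1 (limma, adjusted p = 0.0288), a call lost without any 1 of the Col-0 libraries or without se-1 replicate 2 or 3 (adjusted p up to 0.0817). Its change of 0.22 in cyp71-3 did not pass the test (adjusted p = 0.0642). WRKY53 shares 341 bases, 21.1% of its length, with 3xHMG-box2 on the opposite strand, which averaged 70.2 FPKM in cyp71-3, 32.0 FPKM in se-1 and 28.1 FPKM in Col-0. WRKY33 (AT2G38470), the main regulator of camalexin synthesis, averaged 16.0 FPKM in cyp71-3, 15.2 FPKM in se-1 and 15.8 FPKM in Col-0. It was called in neither mutant, with changes of 0.01 and -0.05 (adjusted p = 0.857 and 0.489). WRKY38 (AT5G22570) and WRKY62 (AT5G01900), a related pair of repressors, were not tested. WRKY62 was listed at 0.20, 0.69 and 0.33 FPKM in cyp71-3, 0.00, 0.00 and 0.11 FPKM in se-1, and 0.15, 0.08 and 0.07 FPKM in Col-0, and WRKY38 averaged 0.303 FPKM in cyp71-3, 0.117 FPKM in se-1 and 0.163 FPKM in Col-0.

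The PR genes, the classical outputs of salicylate signalling, included the largest fall of the set on the log2 scale. PR1 (AT2G14610), a secreted antimicrobial protein, had 4.50, 3.79 and 3.64 FPKM in cyp71-3, 1.3, 1.46 and 1.09 FPKM in se-1, and 49.13, 48.54 and 49.26 FPKM in Col-0. The Col-0 libraries were within 1 FPKM of each other, and no mutant library reached 5 FPKM. PR1 fell 12.3-fold in cyp71-3 (log2 change -3.33 ± 0.08, limma, adjusted p = 8.95e-11) and 38.2-fold in se-1 (-4.46 ± 0.08, adjusted p = 1.09e-10). PR2 (AT3G57260), a beta-1,3-glucanase, had 4.96, 5.74 and 4.69 FPKM in cyp71-3, 2.64, 2.91 and 2.44 FPKM in se-1, and 10.23, 11.55 and 12.27 FPKM in Col-0. It too was lowest in se-1, with a 2.21-fold fall in cyp71-3 and a 4.26-fold fall in se-1 (log2 changes -1.01 ± 0.09 and -1.75 ± 0.09, limma, adjusted p = 2.58e-06 and 6.29e-08).

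PR5 (AT1G75040), a thaumatin-like protein, differed from the other PR genes in se-1. It had 7.03, 5.20 and 5.62 FPKM in cyp71-3, 16.08, 19.97 and 19.04 FPKM in se-1, and 12.95, 12.06 and 12.31 FPKM in Col-0. All se-1 libraries lay above Col-0 and all cyp71-3 libraries below it. PR5 fell 2.09-fold in cyp71-3 (log2 change -0.96 ± 0.10, limma, adjusted p = 7.51e-06) and rose 1.48-fold in se-1 (0.52 ± 0.10, adjusted p = 0.00122).

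The upstream bases of PR5 are shown because PR5 moved in opposite directions in the mutants. They are the 250 bases before the start annotated by RefSeq on TAIR10.1, chr1:28177420-28177669, plus strand, 5′ to 3′, beside a gene of 2 exons. Capitals mark AGTCAA, a W-box core (TTGACT) on the opposite strand, 166 bases before the start.
PR5: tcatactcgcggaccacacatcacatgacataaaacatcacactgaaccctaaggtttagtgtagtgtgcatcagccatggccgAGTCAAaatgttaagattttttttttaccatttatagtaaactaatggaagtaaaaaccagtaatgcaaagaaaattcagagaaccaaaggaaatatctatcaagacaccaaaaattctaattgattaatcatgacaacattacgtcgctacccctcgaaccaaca

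**Figure D2:**
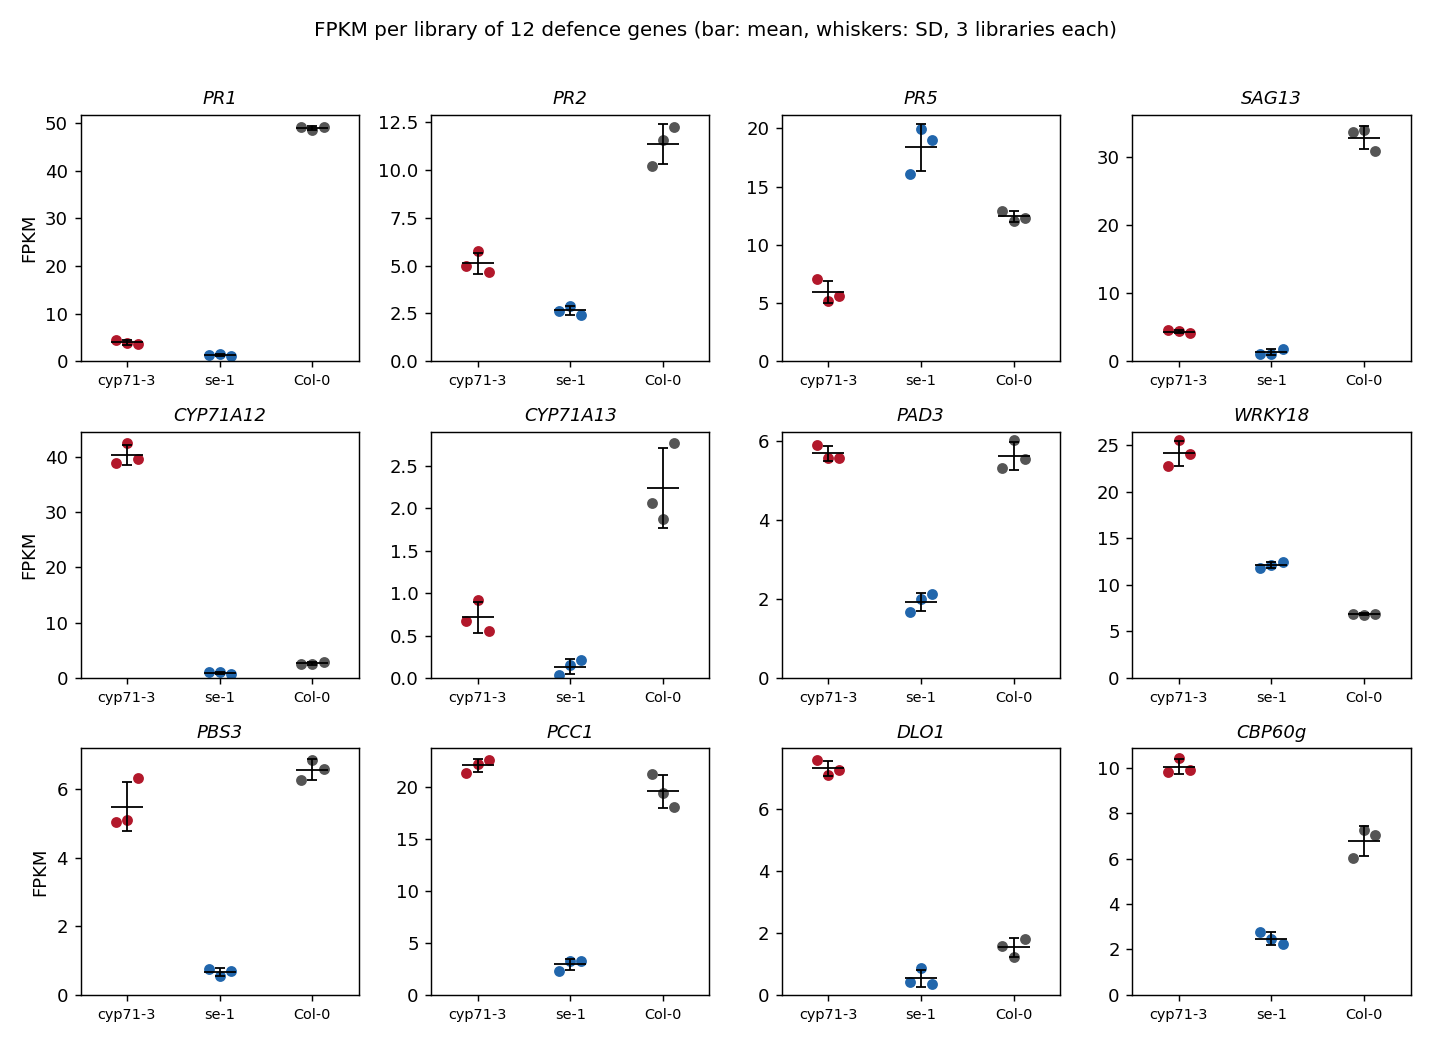
FPKM of 12 defence genes in each of the 9 libraries (points), with a horizontal bar for the mean and whiskers for the SD of 3 libraries; axes start at 0 and differ between panels. PR1 sits at 48.54 to 49.26 FPKM in Col-0 and below 5 FPKM in both mutants, and CYP71A12 sits at 38.92 to 42.45 FPKM in cyp71-3 and below 3 FPKM elsewhere.

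The camalexin P450 genes gave the largest rise of the set. CYP71A12 (AT2G30750) encodes a P450 that converts indole-3-acetaldoxime towards indole cyanide products. It had 38.92, 42.45 and 39.55 FPKM in cyp71-3, 1.03, 1.03 and 0.75 FPKM in se-1, and 2.51, 2.56 and 2.96 FPKM in Col-0. The cyp71-3 libraries were far above all others, and the se-1 libraries were below Col-0. CYP71A12 rose 15.1-fold in cyp71-3 (log2 change 3.49 ± 0.09, limma, adjusted p = 7.87e-11) and fell 2.86-fold in se-1 (-0.93 ± 0.09, adjusted p = 4.60e-06).

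Its tandem copy CYP71A13 (AT2G30770), which catalyses the same step in camalexin synthesis, did not share the rise. It had 0.67, 0.92 and 0.56 FPKM in cyp71-3, 0.04, 0.16 and 0.21 FPKM in se-1, and 2.06, 1.88 and 2.77 FPKM in Col-0. Each Col-0 library was above all mutant libraries, and the se-1 values rest on about 0.877, 2.93 and 5.91 fragments. CYP71A13 fell 3.12-fold in cyp71-3 (log2 change -0.91 ± 0.15, limma, adjusted p = 0.000250) and 16.4-fold in se-1 (adjusted p = 8.24e-06). It shares 572 bases, 27.5% of its length, with AT2G30766 on the opposite strand, which averaged 32.7 FPKM in cyp71-3, 56.4 FPKM in se-1 and 90.7 FPKM in Col-0. Since strand use is not stated, fragments of the shared bases cannot be assigned to either gene with certainty, and the part of AT2G30766 in the CYP71A13 values was not tested. PAD3 (AT3G26830), also named CYP71B15, which catalyses the last steps to camalexin, had 5.89, 5.58 and 5.58 FPKM in cyp71-3, 1.68, 1.99 and 2.12 FPKM in se-1, and 5.31, 6.02 and 5.54 FPKM in Col-0. The cyp71-3 and Col-0 libraries overlapped, and se-1 was below both. PAD3 fell 2.91-fold in se-1 (-1.18 ± 0.09, limma, adjusted p = 7.15e-07), and its change of 0.01 in cyp71-3 did not pass the test (adjusted p = 0.895).

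The upstream bases of both CYP71A copies are shown because these neighbours moved apart in cyp71-3; CYP71A13 was added after its values were seen. On TAIR10.1 they lie on chromosome 2, minus strand, 8537 bases apart, with 4 exons each. Their coding sequences of 1494 bases are identical at 90.4% of aligned bases with a longest identical run of 59 bases, so fragments could in part be assigned to the wrong copy. The 250 bases before each start, chr2:13101372-13101621 for CYP71A12 and chr2:13111989-13112238 for CYP71A13, match at 72.7% of aligned bases. Capitals mark TGACG, 143 bases before the CYP71A13 start.
CYP71A12: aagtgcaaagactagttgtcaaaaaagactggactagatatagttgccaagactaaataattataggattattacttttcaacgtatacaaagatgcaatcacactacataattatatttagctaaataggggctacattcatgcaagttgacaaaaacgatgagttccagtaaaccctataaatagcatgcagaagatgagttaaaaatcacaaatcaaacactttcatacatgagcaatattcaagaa
CYP71A13: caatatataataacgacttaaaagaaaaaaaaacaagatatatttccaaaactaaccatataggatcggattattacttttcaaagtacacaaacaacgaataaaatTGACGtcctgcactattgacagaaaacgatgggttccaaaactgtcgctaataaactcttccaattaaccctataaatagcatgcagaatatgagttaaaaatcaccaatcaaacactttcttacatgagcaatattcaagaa

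Of the 6 defence markers, 5 were tested, and 4 of these were lower in cyp71-3 and 5 in se-1, against 32.7% and 25.1% of all genes tested. SAG13 (AT2G29350), a short-chain dehydrogenase used as a marker of senescence and cell death, had 4.53, 4.38 and 4.13 FPKM in cyp71-3, 1.10, 1.13 and 1.88 FPKM in se-1, and 33.60, 34.00 and 30.95 FPKM in Col-0. As for PR1, both mutants were far below Col-0 and se-1 was the lower of the mutants. SAG13 fell 7.56-fold in cyp71-3 (log2 change -2.66 ± 0.11, limma, adjusted p = 4.55e-09) and 24.0-fold in se-1 (-3.85 ± 0.11, adjusted p = 7.65e-10). PCR1 (AT1G14880), a small cysteine-rich membrane protein named for cadmium resistance, had 1.21, 1.37 and 1.83 FPKM in cyp71-3, 0.25, 0.30 and 0.26 FPKM in se-1, and 11.19, 11.32 and 9.86 FPKM in Col-0. It followed the same order, with a fall of 7.34-fold in cyp71-3 and a steeper one in se-1 (log2 changes -2.26 ± 0.11 and -3.21 ± 0.11, limma, adjusted p = 1.78e-08 and 3.25e-09).

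ACD6 (AT4G14400), an ankyrin-repeat membrane protein that raises salicylate signalling, was the marker with the opposite order of mutants. It had 12.60, 12.75 and 11.73 FPKM in cyp71-3, 18.88, 18.91 and 17.55 FPKM in se-1, and 33.42, 32.35 and 32.91 FPKM in Col-0, with cyp71-3 the lowest and no overlap. Its falls were 2.66-fold in cyp71-3 and 1.78-fold in se-1 (log2 changes -1.34 ± 0.05 and -0.80 ± 0.05, limma, adjusted p = 1.94e-09 and 2.34e-07). PCC1 (AT3G22231), a small membrane protein induced by pathogens and by the clock, had 21.38, 22.23 and 22.58 FPKM in cyp71-3, 2.28, 3.25 and 3.25 FPKM in se-1, and 21.25, 19.37 and 18.04 FPKM in Col-0. It was low in se-1 alone, where it fell 6.68-fold (-2.40 ± 0.10, limma, adjusted p = 8.70e-09), and its change of 0.17 in cyp71-3 did not pass the test (adjusted p = 0.155). Without se-1 replicate 1, which does not enter the difference itself, the adjusted p in cyp71-3 was 0.0376.

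GRX480 (AT1G28480), a glutaredoxin that binds TGA factors, averaged 1.06 ± 0.33 FPKM in cyp71-3, 0.680 ± 0.28 FPKM in se-1 and 1.88 ± 0.38 FPKM in Col-0 (SD, n = 3), on about 5.98 to 15 fragments per library in cyp71-3, 3.94 to 9.08 in se-1 and 14.1 to 19 in Col-0. It fell by 0.49 in cyp71-3 and by 0.78 in se-1 (limma, adjusted p = 0.0264 and 0.00273). The GRX480 call in cyp71-3 was lost without Col-0 replicate 1 or 2 or without cyp71-3 replicate 1 or 3 (adjusted p up to 0.10). FRK1 (AT2G19190), a receptor kinase gene induced by flagellin, was not tested and stayed at or under 0.40 FPKM in each library.

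In the direct comparison of cyp71-3 with se-1, which uses no Col-0 library in the difference, 23 of the 35 tested genes were higher in cyp71-3 and 4 lower. Over all genes tested, 62.2% were called, 30.0% higher and 32.2% lower. At a log2 change of at least 1, 12 defence genes were higher, against 3.28% of all genes, and 1 was lower, against 4.07%. The median difference of the tested defence genes was 0.59, beside 0.00 for all genes. CYP71A12, DLO1, PBS3, FMO1 and SARD1, among the 12, were under 1 FPKM in se-1 and passed the filter through other genotypes. With a mean of at least 5 FPKM over the libraries, 14 defence genes were higher and 4 lower, with a median of 0.47. Fewer genes were tested at that level, where 9393 of all genes were called and their share was not computed. The largest differences were those of CYP71A12, at 40.3 FPKM in cyp71-3 and 0.937 FPKM in se-1 (log2 difference 4.42 ± 0.09), and of PCC1, at 22.1 and 2.93 FPKM in the same order (2.56 ± 0.10; limma, adjusted p = 1.00e-11 and 2.34e-09). DLO1, PBS3, FMO1, CBP60g, WRKY46 and SARD1 followed, with log2 differences of 2.45, 1.96, 1.73, 1.67, 1.57 and 1.29 (limma, adjusted p between 2.34e-08 and 1.05e-06).

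PR1 and SAG13, low in both mutants, also differed between them. PR1 was 3.10-fold higher in cyp71-3 than in se-1 (log2 difference 1.12 ± 0.08), and SAG13 was 3.17-fold higher (1.19 ± 0.11; limma, adjusted p = 4.66e-07 and 3.23e-06). PAD3, called lower in se-1, and SAG101, called higher in cyp71-3, were higher in cyp71-3 than in se-1 by 1.19 and 1.00 on the log2 scale (adjusted p = 3.51e-07 and 4.48e-05). The 4 genes lower in cyp71-3 than in se-1 were PR5, with a log2 difference of -1.48 ± 0.10, ACD6 with -0.54, NPR1 with -0.33 and NPR4 with -0.17 (limma, adjusted p = 2.25e-07, 3.09e-06, 0.00120 and 0.0276). The NPR4 call was lost without cyp71-3 replicate 1 or 3 or without se-1 replicate 1 or 2 (adjusted p up to 0.105). PAD4, EDS5, EPS1, NPR3, WRKY40, WRKY53, WRKY33 and GRX480 did not pass the test of the difference.

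**Figure D3:**
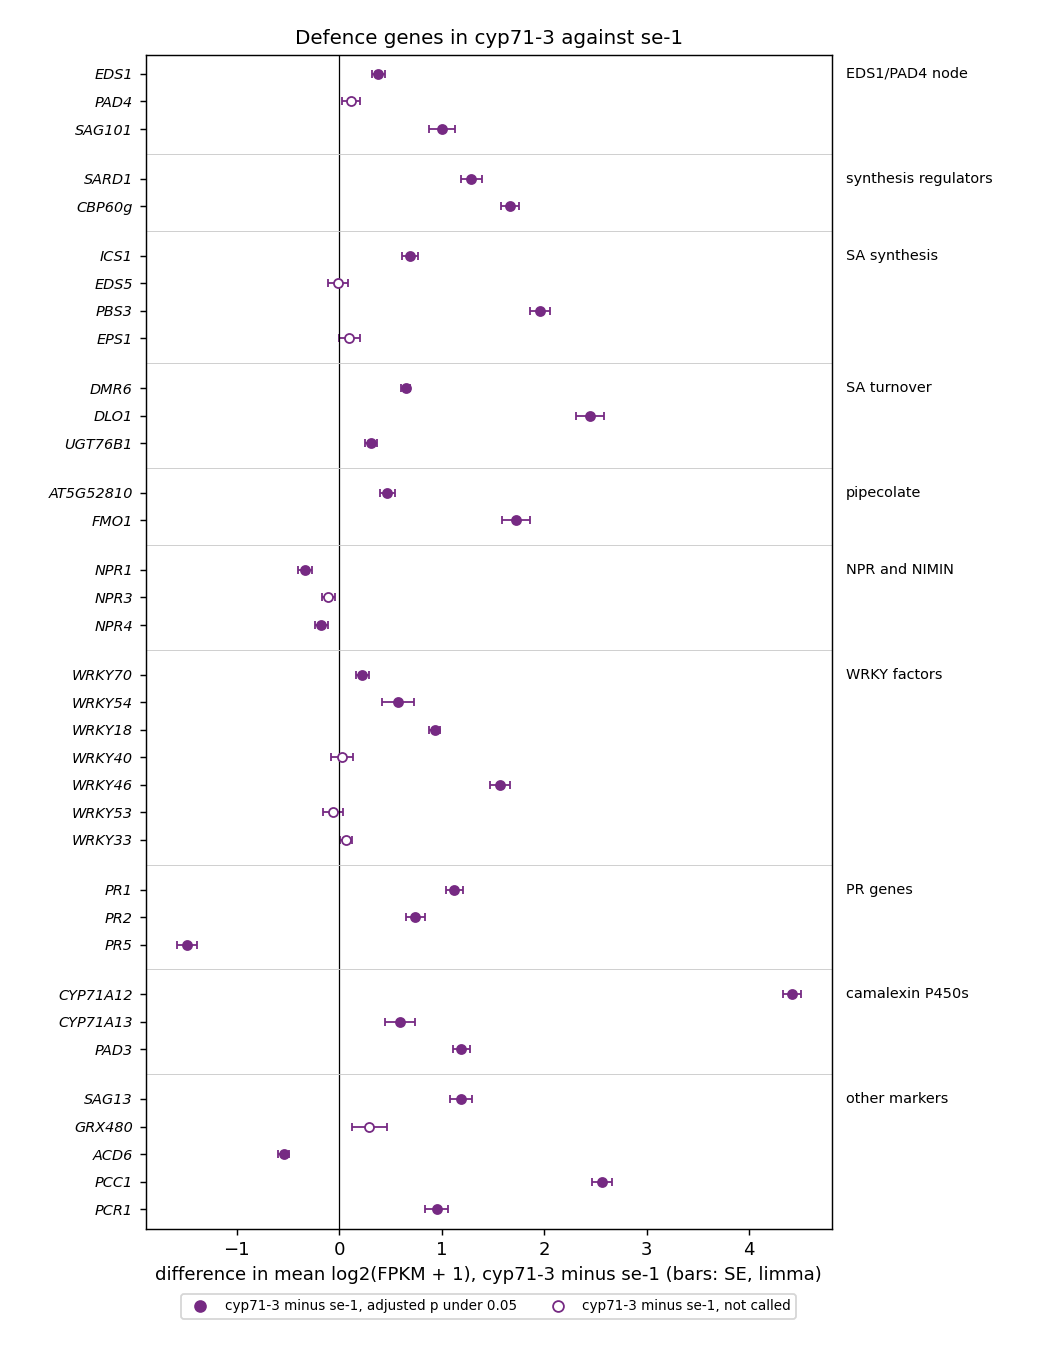
Difference in mean log2(FPKM + 1), cyp71-3 minus se-1, for the 35 tested defence genes by role, with bars for the SE and filled points for an adjusted p under 0.05. Points right of 0 are higher in cyp71-3, with CYP71A12 at 4.42 and PCC1 at 2.56, and PR5 is the lowest at -1.48.

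The 250 bases before the annotated start of each of the 40 genes were searched on both strands for TTGACC or TTGACT (the W-box bound by WRKY factors), TGACG (TGA factors) and GAAATTT (CBP60g and SARD1). W-boxes were in 8 of the 40 windows (20.0%), against 28.4% of 27434 upstream windows of the genome. TGACG was in 9 (22.5%), against 18.6%, and GAAATTT in 4 of the 40, against 12.5%. The shares are thus close to those of the genome at this window length. GAAATTT was found upstream of ICS1, UGT76B1, ALD1 and FMO1, and TGACG upstream of SARD1, DLO1, NPR3, NPR4, WRKY70, WRKY40, CYP71A13, GRX480 and PCC1. W-boxes were upstream of EDS1, EDS5, AT5G52810, WRKY62, WRKY53, WRKY33, PR5 and FRK1. A match describes letters and not a site, and the window does not cover more distant promoter sequence.

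Genes around these pathways were read from lists of 102 other genes. Their counts stand beside the shares over all genes tested, 30.6% higher and 32.7% lower in cyp71-3 and 25.1% in each direction in se-1. In the perception of microbial patterns, 3 of 13 tested genes were higher and 5 lower in cyp71-3, with a median change of -0.14, and 3 were higher and 4 lower in se-1, with a median of -0.10. SOBIR1, a coreceptor kinase, fell by 0.41 in cyp71-3 and by 0.66 in se-1. RBOHD, the NADPH oxidase of the oxidative burst, rose by 0.24 in cyp71-3 and by 0.22 in se-1. WRKY22 fell by 0.41 in cyp71-3 and rose by 1.07 in se-1, WRKY29 rose by 0.42 in cyp71-3, and the kinase MPK3 fell by 0.35 in se-1 (limma, adjusted p of at most 0.00857 for each of these).

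Among intracellular NLR receptors and their helpers, 2 of 13 were higher and 4 lower in cyp71-3 (median -0.12), and 1 was higher and 4 lower in se-1 (median -0.19). The helper ADR1, which acts with EDS1 and PAD4, rose to 13.9 FPKM in cyp71-3, against 5.28 FPKM in Col-0 (log2 change 1.25, limma, adjusted p = 1.68e-07). Its relative ADR1-L2 rose 2.09-fold in se-1, where it averaged 29.98 FPKM, against 14.3 FPKM in Col-0 (adjusted p = 1.65e-07), and by 0.18 in cyp71-3 (adjusted p = 0.0219). RIN4 and RPS2, a guarded protein and its guard, fell by 0.54 and 0.41 in cyp71-3, while NDR1 and SNC1 fell by 0.91 and 0.69 in se-1, and SNC1 also by 0.34 in cyp71-3 (adjusted p of at most 0.0107).

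Of 18 other salicylate genes tested, 2 were higher and 10 lower in cyp71-3 (median -0.28), and 5 higher and 7 lower in se-1 (median -0.09). ICS2, the second isochorismate synthase gene, rose to 8.77 FPKM in cyp71-3 and 4.78 FPKM in se-1, against 2.12 FPKM in Col-0 (log2 changes 1.65 and 0.89, limma, adjusted p = 6.02e-08 and 1.61e-05). DIR1, a lipid transfer protein of systemic resistance, averaged 43.3 FPKM in cyp71-3 and 98.2 FPKM in Col-0, a fall of 2.27-fold, and it rose by 0.14 in se-1, to 108.3 FPKM (limma, adjusted p = 6.04e-09 and 0.0387). PAL2, a phenylalanine ammonia-lyase, averaged 96.8 FPKM in cyp71-3 and 197.9 FPKM in Col-0, a fall of 2.05-fold, and it fell by 0.37 in se-1. PAL1 fell to 152.8 FPKM in cyp71-3 and 100.7 FPKM in se-1, against 283.0 FPKM in Col-0 (adjusted p = 8.88e-09 and 6.13e-10). MES9, a methyl salicylate esterase, fell by 0.61 in cyp71-3 and by 0.71 in se-1 (limma, adjusted p = 2.01e-05 and 1.03e-05). The factor TGA1 fell by 0.26 in cyp71-3 and rose by 0.41 in se-1 (adjusted p = 0.00158 and 9.88e-05), and TGA3 rose by 0.20 in cyp71-3 (adjusted p = 0.0499).

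Of 13 other indole and camalexin genes tested, 9 were higher and none lower in cyp71-3 (median 0.29), and 4 were higher and 6 lower in se-1 (median -0.13). CYP82C2, a P450 of 4-hydroxyindole carbonyl nitrile synthesis, averaged 8.24 FPKM in cyp71-3 and 0.50 FPKM in Col-0 (log2 change 2.63 ± 0.13, limma, adjusted p = 1.36e-08), and at 0.19 FPKM in se-1 it was called lower (-0.33, adjusted p = 0.0496). GSTF6, a glutathione transferase of camalexin synthesis, averaged 179.9 FPKM in cyp71-3, 21.6 FPKM in se-1 and 53.6 FPKM in Col-0 (log2 changes 1.73 and -1.27, adjusted p = 1.65e-10 and 4.09e-09). In se-1, AT1G26380, for which the annotation gives no symbol, fell by 1.26, CYP81F2, a P450 of indole glucosinolate modification, rose by 0.75, and GGP1, a glutamyl peptidase, rose by 0.34 (adjusted p of at most 0.000339). CYP81F2 also rose by 0.76 in cyp71-3 (adjusted p = 0.000200).

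Of 11 jasmonate and ethylene outputs tested, 4 were higher and 4 lower in cyp71-3 (median 0.06), shares close to those of all genes, and 5 were higher and 4 lower in se-1 (median 0.19). LOX2, a lipoxygenase of jasmonate synthesis, rose to 94.3 FPKM in cyp71-3, against 33.4 FPKM in Col-0 (log2 change 1.47, limma, adjusted p = 3.43e-10), and by 0.44 in se-1 (adjusted p = 8.72e-06). The basic chitinase CHIB rose to 37.0 FPKM in cyp71-3 and 41.3 FPKM in se-1, against 14.9 FPKM in Col-0 (1.25 and 1.40, adjusted p = 3.95e-08 and 3.61e-08). The defensins PDF1.2B and PDF1.2A fell by 1.06 and 0.87 in cyp71-3 and by 2.80 and 1.3 in se-1, and the factor ORA59 rose by 0.93 in se-1 (adjusted p of at most 0.000594). Defensin genes are similar in sequence, and their fragments may be divided between copies.

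**Figure D4:**
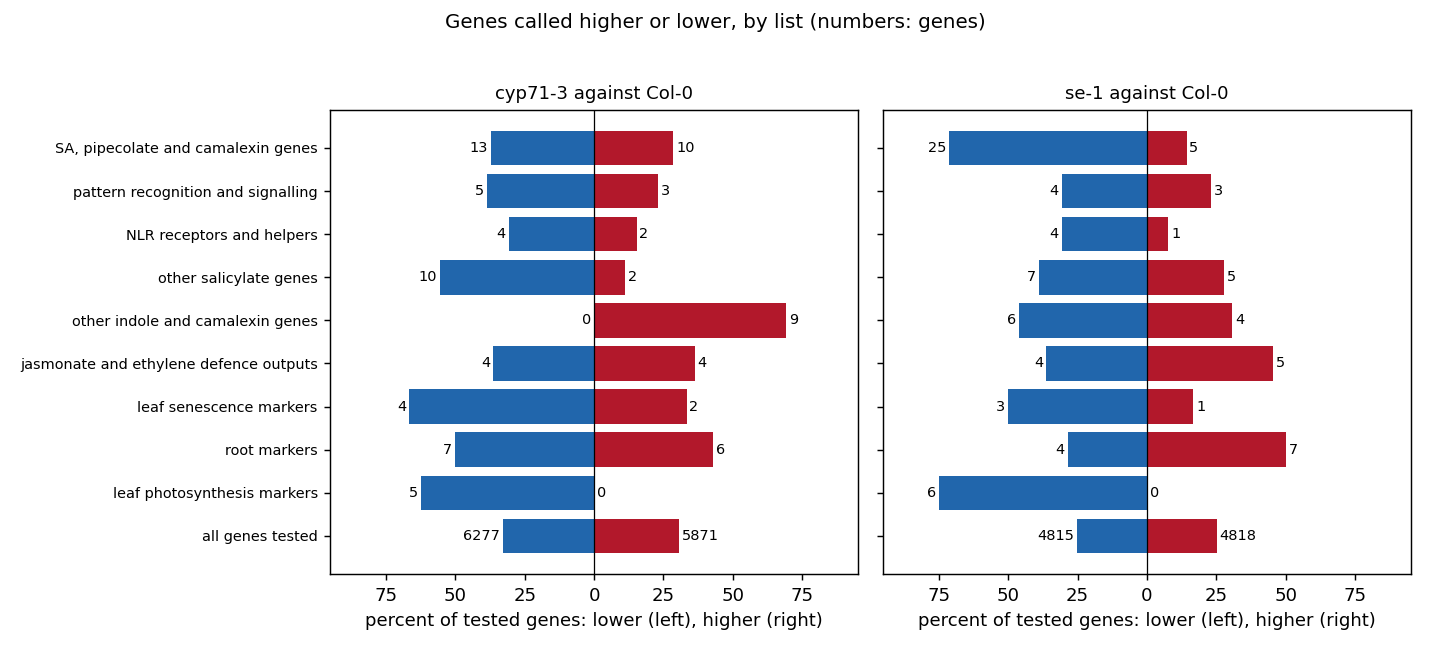
Percent of tested genes called lower (bars to the left, blue) and higher (bars to the right, red) than Col-0, in cyp71-3 (left panel) and se-1 (right panel), for the defence genes, 8 other lists and all genes tested; numbers are genes. In se-1, 25 of 35 defence genes were lower and 5 higher, and in cyp71-3, 9 of 13 other indole and camalexin genes were higher and none lower.

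Markers of organ and age makeup were read against the same background, in which 63.3% of all genes tested were called in cyp71-3 and 50.2% in se-1. Of 6 tested leaf senescence markers, 2 were higher and 4 lower in cyp71-3 and 1 higher and 3 lower in se-1. Their summed level was 340 to 361 FPKM in cyp71-3, 195 to 209 FPKM in se-1 and 251 to 256 FPKM in Col-0, and SAG12, the defining marker, was listed at 0 in each library. SAG29, a sugar transporter gene, rose to 268.8 FPKM in cyp71-3, against 23.6 FPKM in Col-0, and SEN1 fell to 23.5 FPKM in cyp71-3, against 134.6 FPKM in Col-0. The senescence regulator NAP fell to 19.4 FPKM in cyp71-3 and 14.3 FPKM in se-1, against 48.1 FPKM in Col-0. WRKY6 rose by 0.24 in cyp71-3 and fell by 0.21 in se-1, and ORE1 fell by 0.45 in cyp71-3 and rose by 0.27 in se-1. NYE1, a chlorophyll breakdown gene, fell by 0.34 in cyp71-3 and by 0.40 in se-1 (limma, adjusted p of at most 0.0337 for each).

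Of 14 root markers, 6 were higher and 7 lower in cyp71-3 and 7 higher and 4 lower in se-1, with summed levels of 296 to 312 FPKM in cyp71-3, 341 to 361 FPKM in se-1 and 328 to 349 FPKM in Col-0. Much of each sum was TIP2;2 alone, which averaged 171.3 FPKM in cyp71-3, 179.1 FPKM in se-1 and 204.6 FPKM in Col-0. The nitrate transporter gene NRT2.1 and the root stem-cell factor WOX5 rose by 1.88 and 1.72 in cyp71-3, while the aquaporin TIP2;3 and the endodermal CASP1 fell by 1.86 and 0.76. In se-1 the iron transporter IRT1 and PRP3 rose by 2.07 and 1.34, and TIP2;3 and SCR fell by 0.77 and 0.43 (limma, adjusted p of at most 0.000109). In the other mutant, IRT1, PRP3 and SCR changed by 1.53, 1.03 and -0.52 in cyp71-3, and NRT2.1, WOX5 and CASP1 by -0.35, 0.41 and 0.25 in se-1 (adjusted p of at most 0.0431). Of 8 leaf photosynthesis markers, none was higher and 5 were lower in cyp71-3 (median -0.21), and none was higher and 6 were lower in se-1 (median -0.23). Over all genes tested, 30.6% were higher and 32.7% lower in cyp71-3, and 25.1% in each direction in se-1. The summed level of the leaf photosynthesis markers was 43909 to 44896 FPKM in cyp71-3, 44145 to 49102 FPKM in se-1 and 50547 to 52107 FPKM in Col-0. RCA fell by 0.63 and 0.49, and LHCB2.1 by 0.56 and 0.46, in cyp71-3 and se-1. The part of these markers in the changes of the defence genes was not tested.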

How the data were processed

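The authors deposited FPKM values per gene, 1 file for each of 9 mRNA-seq libraries. The tools named per the submitters' processing notes are STAR 2.7.2b, Cuffdiff, Cuffnorm and Trim Galore 0.6.7, with TAIR10 as the build. The annotation, the strandedness and which tool did what are not given. FPKM depends on the library total, and fragments of similar copies or overlapping genes may be divided between them. A further allele named in the design text, cyp71-2, and sequencing of small RNAs were not analysed here.

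Values were analysed as log2(FPKM + 1) for 19180 genes with a mean of at least 1 FPKM, in 1 linear model of the 3 genotypes with moderated variances and an intensity trend (limma 3.58.1 in R 4.3.3, 6 residual degrees of freedom, two-sided, Benjamini-Hochberg adjustment over all genes tested). The procedure was also run on simulated data with independent noise and changes set in few genes of cyp71-3 alone. Many more genes were called in the real data, so that run cannot show that the calls given here are right. Whole fragments were not recovered, so no count model was run; fragment numbers are approximate and assume 250 bases of fragment length. Values per library are given for genes called with a log2 change of at least 1 in any comparison and for NPR1, EDS1 and PAD4, and 2 called genes each way per mutant for the other lists. The genes and lists were chosen with earlier results of these data known, so counts over them carry no test of their own. The 19 alternatives changed the pseudocount, filter, scaling, variance model, block, fold threshold or left out a library. Symbols, motifs and sequences came from the TAIR10.1 genome and annotation of RefSeq, matched by locus for 32538 of 32823 genes; the deposited values carry no coordinates. Software was Python 3.11.15, pandas 2.3.3, numpy 2.4.6, Biopython 1.88 and matplotlib 3.10.9. The upstream sequence of 1 gene is not reported here.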

Additional observations from a re-analysis of the deposited data

How the results depend on the processing

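Of 105 calls on single genes (35 in each of 3 comparisons), 88 were the same under all alternatives that tested them (the fold threshold was applied to counts only), and no call turned its direction. With calls only at a log2 change of at least 1, the counts over all genes were 1263 in cyp71-3 against Col-0, 675 in se-1 against Col-0 and 1410 in cyp71-3 against se-1. The defence genes called higher and lower were then 4 and 5, 0 and 11, and 12 and 1 in the same comparisons. With a mean of at least 5 FPKM, fewer genes were tested, and the counts were 6 higher and 8 lower in cyp71-3, 14 lower in se-1, and 14 higher between the mutants. Under quantile normalization 3 were higher in se-1. The median change in cyp71-3 was -0.0436 under quantile normalization and 0.105 with organelle genes left out and the libraries rescaled. In se-1 it was -0.715 with a pseudocount of 0.1, -0.507 with a mean of at least 0.1 FPKM and -0.445 with at least 5 FPKM. Without organelle genes and with the libraries rescaled it was -0.583 in se-1. Between the mutants it was 0.747, 0.449 and 0.470 under the same pseudocount and filters, and 0.669 under quantile normalization.

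With organelle genes left out and the libraries rescaled, the median change of all genes was 0.0856 in cyp71-3 and 0.105 in se-1. The share of called genes that were higher was then 60.8% in cyp71-3 and 69.6% in se-1. For the defence genes that share in se-1 was 17.9%, beside 16.7% as deposited. Leaving out 1 library gave 9 to 11 higher and 12 to 13 lower in cyp71-3, 3 to 4 higher and 25 lower in se-1, and 23 higher and 3 to 4 lower between the mutants. The 3 in se-1 came without Col-0 replicate 1, se-1 replicate 2 or se-1 replicate 3. All genes called then ranged over 11169 to 12433, 8467 to 9607 and 10835 to 11811, and the medians over -0.0318 to 0.0252, -0.683 to -0.592 and 0.530 to 0.641.

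Libraries that share a number in their titles did not deviate together (correlations of deviations across genes from -0.137 to 0.0427), so the numbers were not taken as pairs. With the replicate number as a block, NPR1 in se-1 (adjusted p = 0.0676, limma) and NPR4 between the mutants (0.0502) were no longer called, and no other call on a defence gene changed. Scaling moved a few calls near the threshold. With organelle genes left out and the libraries rescaled, EDS5 (adjusted p = 0.0505) and UGT76B1 (0.0670) were not called in se-1. In the same setting WRKY53 (0.0252), PCC1 (0.0232) and AT5G52810 (0.0154) were called higher in cyp71-3. Under quantile normalization PBS3 (0.0314), NPR1 (0.0208) and NPR4 (0.0239) were called lower in cyp71-3. Depth limits what can be said of ALD1, NIMIN1, WRKY38, WRKY62, FRK1, CYP71A13, GRX480 and, in se-1, FMO1, which rest on few fragments in at least some libraries. Fragments were estimated only for some genes with a low mean over all libraries. PCR1, DLO1, PBS3 and CYP71A12, which averaged 0.27, 0.54, 0.667 and 0.937 FPKM in se-1, were not among them. The same limit may hold for the se-1 values of these genes.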

Other observations

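Genes beside some of the defence genes were looked up after the values of the defence genes were seen. Those below are examples from that search. Some moved in the same directions as the defence gene beside them, and others did not. PRB1 (AT2G14580), a basic PR1-type gene next to PR1 on chromosome 2, averaged 0.877 ± 0.40 FPKM in cyp71-3, 8.67 ± 0.75 FPKM in se-1 and 10.11 ± 0.80 FPKM in Col-0 (SD, n = 3). It fell by 2.58 on the log2 scale in cyp71-3 (limma, adjusted p = 2.29e-08), and its change of -0.20 in se-1 did not pass the test (adjusted p = 0.230), while PR1 itself was lowest in se-1. LURP1 (AT2G14560), the next gene, known for its late and sustained rise after infection, averaged 18.2 FPKM in cyp71-3, 2.21 FPKM in se-1 and 13.6 FPKM in Col-0. It rose by 0.40 in cyp71-3 and fell by 2.19 in se-1 (adjusted p = 0.00134 and 5.10e-09).

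AT3G22235, the neighbour of PCC1, averaged 121.7 FPKM in cyp71-3, 22.1 FPKM in se-1 and 121.5 FPKM in Col-0, with a change of 0.00 in cyp71-3 (adjusted p = 0.969) and a fall of 2.41 in se-1 (adjusted p = 1.77e-09), beside -2.40 for PCC1. AT2G30766, which overlaps CYP71A13 on the opposite strand, fell to 32.7 FPKM in cyp71-3 and 56.4 FPKM in se-1, against 90.7 FPKM in Col-0 (log2 changes -1.44 and -0.67, limma, adjusted p = 2.79e-10 and 2.03e-07). TLP-3 (AT1G75030), a thaumatin-like gene next to PR5, fell by 0.40 in cyp71-3 and rose by 0.65 in se-1 (adjusted p = 0.0236 and 0.00205), with means of 0.747 FPKM in cyp71-3, 2.62 FPKM in se-1 and 1.29 FPKM in Col-0.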
